A study of Mus musculus with 6 samples.

Results

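Male germ cells replace several ubiquitous enzymes of energy metabolism with testis-specific isozymes, and 5 such pairs of genes were followed here, 10 of the 23889 genes listed. Each pair was chosen by name and holds a somatic gene and its testis counterpart: Gapdh and Gapdhs, Pgk1 and Pgk2, Ldha and Ldhc, Pdha1 and Pdha2, and Cycs and Cyct. All 10 genes were present in all 3 deposited tables. The testis member's share, its FPKM as a percentage of the FPKM of both members, was computed in each of the 6 libraries. FPKM is fragments per kilobase of transcript and per M (mega) fragments of the library, a level per length, and the share does not depend on how a library was scaled.

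RNA was sequenced from 3 androgenetic haploid stem cell lines of embryonic origin (AG-haESCs), from round sperm and from embryonic stem cells labelled XX. The AG-haESC lines A129-2, AOS-14 and AOS-16 (1 library each, F1 hybrids of the strains C57BL/6 and DBA/2) grew from blastocysts made by injecting a sperm head into an oocyte without its spindle. The oocytes came from BDF1 females of 8 to 10 weeks, the lines were grown over feeders in a serum replacement medium that contained 2i (inhibitors of MEK and GSK3), and haploid cells in G0/G1 were sorted. The round sperm library (1 library, cell type sperm, same strain) carries the same text on culture and sorting, and the sources used here do not give its donors' age. The ESC XX cells (2 libraries) had an Oct-GFP (C57) background, grew in serum with LIF and 2i and were collected after feeders were removed. Nothing says that the ESC XX libraries came from separate cultures, so their spread may be technical.

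In glycolysis, Gapdh oxidises glyceraldehyde 3-phosphate, Pgk1 makes ATP in the next step, and Ldha reduces pyruvate to lactate. Pdha1 is a subunit of the pyruvate dehydrogenase complex, which passes pyruvate on to the citric acid cycle, and Cycs, the somatic cytochrome c, carries electrons in the respiratory chain. Pgk1 and Pdha1 lie on chromosome X, which is silenced during male meiosis, and their testis counterparts are autosomal retrogenes. Gapdhs and Ldhc are needed for sperm motility and male fertility in the mouse, and Gapdhs is bound to the fibrous sheath of the sperm tail.

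Estimated depth was 8.46 to 18.1 M (mega) fragments per library. Spermatid markers marked the round sperm library (summed over 14 genes, 35767 TPM, against 112 to 179 TPM in the other 5 libraries), and pluripotency markers marked the AG-haESC and ESC XX libraries (10 genes, 7769 to 8520 TPM, against 206 TPM in round sperm). TPM is FPKM rescaled to the same total in each library. Markers of Sertoli and Leydig cells were low in every library (3.04 to 20.3 TPM). Markers of feeder fibroblasts summed to 414 to 679 TPM in AG-haESCs and to 3422 and 3429 TPM in ESC XX. Eef1a1, an abundant elongation factor, was listed at 0 in the 3 AG-haESC lines but reached 6397 and 6462 FPKM in ESC XX and 2097 FPKM in round sperm. A listed 0 may therefore stand for an estimate that failed. In these bulk libraries fewer cells of a type and less RNA per cell cannot be told apart.

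All 5 pairs were dominated by the testis member in round sperm, and none in any AG-haESC or ESC XX library. In round sperm the testis share was 97.9% for Gapdhs, 99.4% for Pgk2, 82.9% for Ldhc, 99.8% for Pdha2 and 96.7% for Cyct. For 4 of the pairs the share stayed under 3% in every embryonic stem cell library. The Ldhc share was 0.0610%, 0.176% and 0.109% in A129-2, AOS-14 and AOS-16 and 0.106% and 0.0589% in ESC XX, and the Pdha2 share 2.81%, 0.261% and 0.361% and 0.503% and 0.356%. The Gapdhs share was 0.0225% in AOS-14 and 0% in the other 4 stem cell libraries, and the Pgk2 share was 0.00392% in AOS-14, 0.00969% in ESC XX replicate 2 and 0% in the other 3. In these 4 pairs the AG-haESC and ESC XX libraries overlapped. Cyct stood apart, at 31.1%, 47.0% and 45.8% of its pair in A129-2, AOS-14 and AOS-16 and at 7.59% and 9.25% in the ESC XX libraries. Summed over the pairs, the testis members made up 86.4% of the FPKM of the 10 genes in round sperm, 0.406% to 1.48% in AG-haESCs and 0.0926% and 0.108% in ESC XX.

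**Figure D1:**
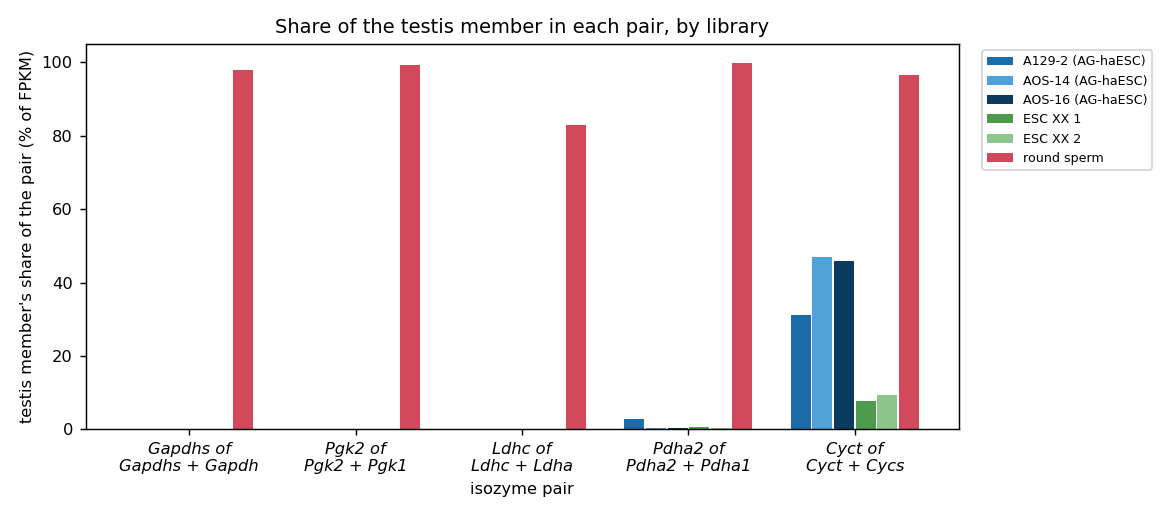
Testis member's share of each isozyme pair (percent of the pair's summed FPKM, y axis) for the 5 pairs (x axis), with 1 bar per library, from 0. Round sperm sits between 82.9% and 99.8% in all pairs, and the Cyct/Cycs pair is the one in which the AG-haESC lines (31.1% to 47.0%) stand visibly above 0 and above ESC XX (7.59% and 9.25%).

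With 3 lines against 1 library the smallest two-sided p of an exact permutation test is 0.25, and each of the 5 shares reached it against round sperm (adjusted over 10 comparisons, 0.417). Against the 2 ESC XX libraries the smallest possible p is 0.1, and the Cyct share reached it, with a difference of 32.9 percentage points (exact permutation test, two-sided, adjusted p = 0.417). The other 4 shares gave exact permutation p of 0.4 for Ldhc, 0.7 for Pgk2, 0.9 for Pdha2 and 1 for Gapdhs. No comparison of shares could therefore pass 0.05 in this design.

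Levels were tested between AG-haESCs and round sperm by limma across 15938 genes on log2(FPKM + 1), and calls needed both an adjusted p (Benjamini-Hochberg) below 0.05 and a log2 difference of 1 or more. All 10 genes were tested, but Gapdhs and Pgk2 reached the filter of 1 FPKM only through round sperm and Pdha1 only through AG-haESCs, so the filter fixed their direction and their values are given as a description. Of the other 7, 5 were called: Gapdh, Pgk1 and Cycs higher in AG-haESCs and Ldhc and Pdha2 lower. Ldha and Cyct were not called. Over all genes tested, 61.9% were called, 22.8% higher and 39.1% lower in AG-haESCs, and the median difference was -0.49. The count of calls among the 7 is near that background. Rescaling every library to the same total moved the median of all genes to 0.40 and the share of calls that were higher from 36.8% to 52.1%. At the same total the log2 differences were 7.87 for Gapdh, 8.27 for Pgk1, 3.82 for Cycs, -11.26 for Ldhc and -4.69 for Pdha2. Ratios to round sperm given below use FPKM as deposited and so depend on this scaling. The p-values rest on 2 residual degrees of freedom from the 3 lines, and the lone round sperm library is assumed to vary like them.

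**Figure D2:**
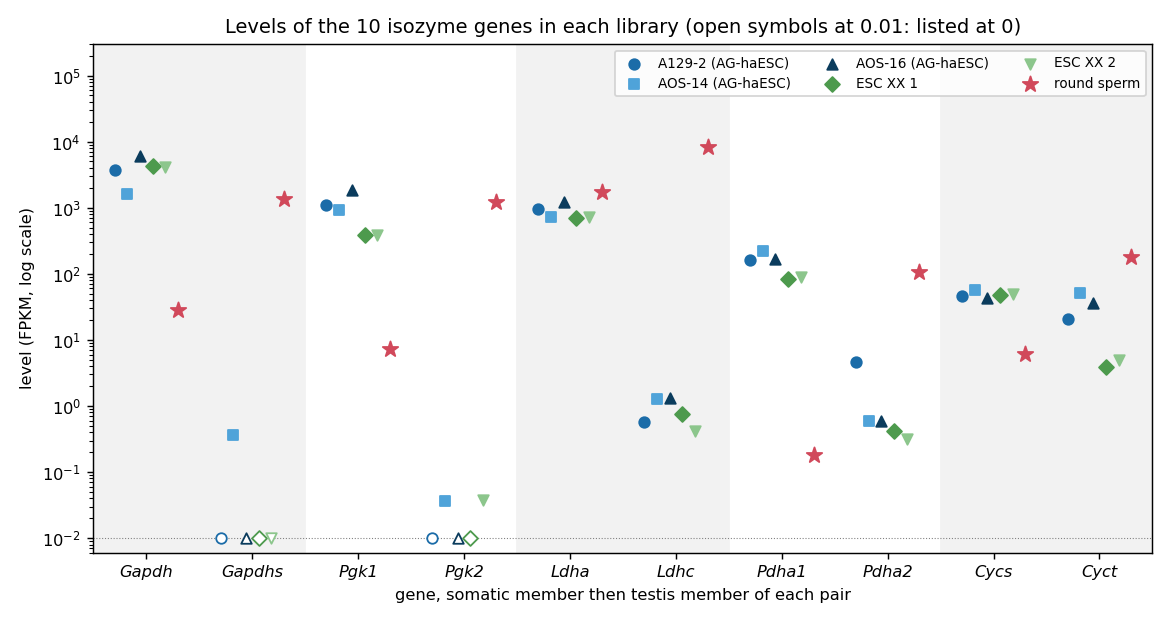
FPKM of the 10 isozyme genes (log scale, y axis) with 1 symbol per library and open symbols at 0.01 for values listed at 0, each somatic gene beside its testis counterpart. Round sperm lies above the other 5 libraries for the 5 testis members and for Ldha, and below them for Gapdh, Pgk1, Pdha1 and Cycs.

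Levels in AG-haESCs and ESC XX were set side by side without a test, because the tables were scaled separately. A gene was counted as higher or lower where log2(TPM + 1), after the median difference over all genes was removed, differed by at least 1 and the 2 groups did not overlap. Gapdhs and Pgk2 stayed under 1 FPKM in all 5 libraries and were not compared. Of the other 8, 3 were higher in AG-haESCs (Pgk1, Pdha2 and Cyct) and none was lower. Ldhc and Pdha2 were under 1 FPKM in ESC XX and entered only through AG-haESCs. The filter thus largely fixed their direction, and the place of Pdha2 among the 3 is a description. Over the 13172 genes compared, 15.6% passed this rule, 7.37% higher and 8.28% lower.

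Gapdh, the most abundant of the 10 in embryonic stem cells, reached 3689.7, 1608.7 and 6024.7 FPKM in A129-2, AOS-14 and AOS-16, 4219.8 and 4096.3 FPKM in ESC XX and 28.7 FPKM in round sperm. It ranked first of all genes by TPM in AOS-16 and 4929th in round sperm. The AG-haESC lines lay on both sides of ESC XX, and round sperm was far below all of them. The mean of AG-haESCs was 132 times the round sperm level (log2 difference 6.80 ± 0.95, SE, limma adjusted p = 0.0151), and the call was lost without A129-2 (6.71, limma adjusted p = 0.0653). Against ESC XX the log2 difference in TPM was -0.43 ± 1.18 (SD over lines, n = 3), within the spread of the lines, whose TPM differed by up to 4.85 times. Gapdhs, the sperm-tail isozyme, was listed at 0 in A129-2, AOS-16 and both ESC XX libraries, at 0.362 FPKM in AOS-14 and at 1368.7 FPKM in round sperm. The log2 difference of -10.27 ± 0.27 (AG-haESC minus round sperm) depends on the 1 FPKM added to each value. AOS-14 was also the line in which the spermatid markers Prm1 (0.772 FPKM), Prm2 (0.247 FPKM), Tnp1 (0.227 FPKM) and Tnp2 (0.438 FPKM) were all above 0, and they were all at 0 in A129-2 and AOS-16. Tnp1 was also at 0.250 FPKM in ESC XX replicate 1. Of the 14 spermatid markers, 7 were at 0 in A129-2, 9 in AOS-16 and none in AOS-14. Spaca1, Odf1, Tssk1, Tssk2, Tssk6 and Crem were lower in AOS-14 than in A129-2 in FPKM, and the others of the 14 were higher. The sum of the 14 was lowest in AOS-14 (112 TPM, against 137 TPM in A129-2 and 179 TPM in AOS-16). AOS-14 had the deepest library (an estimated 18.1 M fragments, against 8.46 M in A129-2 and 9.91 M in AOS-16). The part of spermatid RNA or of depth in the AOS-14 value of Gapdhs was not tested. Summed over the pair, round sperm held 1128 TPM, less than Gapdh alone in each of the other 5 libraries (2274 to 11025 TPM).

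Pgk1 was at 1112.2, 928 and 1859.1 FPKM in the AG-haESC lines, 383 and 386 FPKM in ESC XX and 7.35 FPKM in round sperm. The 3 groups did not overlap, and the order was AG-haESC, ESC XX, round sperm. AG-haESCs stood 177 times above round sperm (log2 difference 7.22 ± 0.52, limma adjusted p = 0.00405) and 3.03 times above ESC XX in TPM (log2 difference 1.59 ± 0.69, SD over lines). Pgk2, encoded by a single exon, was at 1229.8 FPKM in round sperm, at 0.0364 FPKM in AOS-14 and 0.0375 FPKM in 1 ESC XX library, and listed at 0 in the other 3. Each of those low values corresponds to about 1.1 fragments, so Pgk2 was at the limit of detection in every embryonic stem cell library. The log2 difference from round sperm was -10.25 ± 0.09, with a small SE because the lines were all at or near 0. In round sperm its level was 167 times that of Pgk1.

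The windows of 250 bases before the RefSeq starts of these 2 genes (GRCm38.p6; the expression files use mm9) are shown because this X-linked gene and its autosomal copy had the widest contrast in CpG content among pairs with an X-linked member, 17 CpG against 3. Each is printed 5′ to 3′ on the gene's strand, with CG in capitals.
Pgk1, chrX:106186850-106187099, plus strand: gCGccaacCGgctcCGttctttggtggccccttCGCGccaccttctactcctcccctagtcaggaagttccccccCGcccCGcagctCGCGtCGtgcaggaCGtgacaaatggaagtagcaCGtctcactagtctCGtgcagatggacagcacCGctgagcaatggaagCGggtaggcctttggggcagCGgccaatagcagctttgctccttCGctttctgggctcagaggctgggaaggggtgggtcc
Pgk2, chr17:40208610-40208859, minus strand: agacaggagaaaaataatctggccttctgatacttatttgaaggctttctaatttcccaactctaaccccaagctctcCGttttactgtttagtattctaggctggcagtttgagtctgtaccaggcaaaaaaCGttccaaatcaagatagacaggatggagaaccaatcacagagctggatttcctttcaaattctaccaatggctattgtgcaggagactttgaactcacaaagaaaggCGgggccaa

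Ldha did not follow the other somatic members. It was at 943, 723 and 1202.1 FPKM in the AG-haESC lines, 708 and 716 FPKM in ESC XX and 1719.7 FPKM in round sperm, so it was abundant in every library, and highest in FPKM in round sperm. The log2 difference between AG-haESCs and round sperm was -0.88 ± 0.37 (limma adjusted p = 0.137), was not called, and turned to 0.21 when libraries were rescaled to the same total. In TPM, round sperm (1388 TPM) lay within the range of the lines (1022 to 2200 TPM). Against ESC XX the log2 difference was 0.30 ± 0.58 (SD), within the spread of the lines. Ldhc, the lactate dehydrogenase of spermatocytes and sperm, was at 8313.9 FPKM in round sperm, ranking 5th of all genes by TPM. It was at 0.576, 1.28 and 1.32 FPKM in the AG-haESC lines and 0.751 and 0.422 FPKM in ESC XX, groups that overlapped. The round sperm level was 7865 times the mean of AG-haESCs (log2 difference -12.00 ± 0.32, limma adjusted p = 0.000581), while AG-haESCs and ESC XX differed by 0.46 ± 0.34 (log2, SD). In round sperm Ldhc exceeded Ldha by 4.83 times, the smallest ratio of testis to somatic member among the pairs, and together they summed to 8097 TPM, against 1024 to 2202 TPM elsewhere.

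Pdha1 was at 161, 225 and 166 FPKM in the AG-haESC lines, 82.7 and 88.5 FPKM in ESC XX and 0.179 FPKM in round sperm, about 5.0 fragments. The groups did not overlap, and its TPM was the most even across lines of the 10 genes, differing by 1.05 times (312.5 ± 7.78 TPM, SD, n = 3). The log2 difference between AG-haESCs and round sperm was 7.28 ± 0.27. Against ESC XX (169 ± 7.95 TPM, SD, n = 2) the log2 difference was 0.98 ± 0.04 (SD over lines), just under the size of 1 that the rule asks for, and it passed without A129-2 (1.06), without AOS-16 (1.04), without ESC XX replicate 2 (1.03), on FPKM as deposited (1.08) and with a pseudocount of 0.1 (1.01). Pdha2, its intronless autosomal copy, was at 107 FPKM in round sperm, at 4.66 FPKM in A129-2, 0.587 FPKM in AOS-14 and 0.602 FPKM in AOS-16, and at 0.418 and 0.316 FPKM in ESC XX. A129-2 stood alone among the stem cell libraries, and the other 2 lines lay close to ESC XX. Pdha2 was lower in AG-haESCs than in round sperm (log2 difference -5.47 ± 1.04, limma adjusted p = 0.0283). That call was lost at the same total (adjusted p = 0.0671), with quantile normalization (0.0532), without AOS-14 (0.106) and without AOS-16 (0.0968). Its place among the genes higher than in ESC XX (log2 difference 1.08 ± 1.37, SD) was lost without ESC XX replicate 2 (0.99), on FPKM as deposited (0.83) and with quantile normalization (0.84), and rests on A129-2: without it the gene stayed under 1 FPKM everywhere and was not compared, and the testis share of the pair then differed from that of ESC XX by -0.118 percentage points.

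Pgk1 and Pdha1 are X-linked, and X-linked genes as a group differed in both comparisons. Against round sperm, 71.8% of the 673 X-linked genes tested were called, 45.3% higher and 26.4% lower in AG-haESCs, with a median log2 difference of 1.29. Against ESC XX, 47.8% of 525 passed the rule, 45.5% higher and 2.29% lower, with a median of 0.92. The difference of Pdha1 from ESC XX (0.98) thus lay close to the X-linked median, and that of Pgk1 (1.59) above it.

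**Figure D3:**
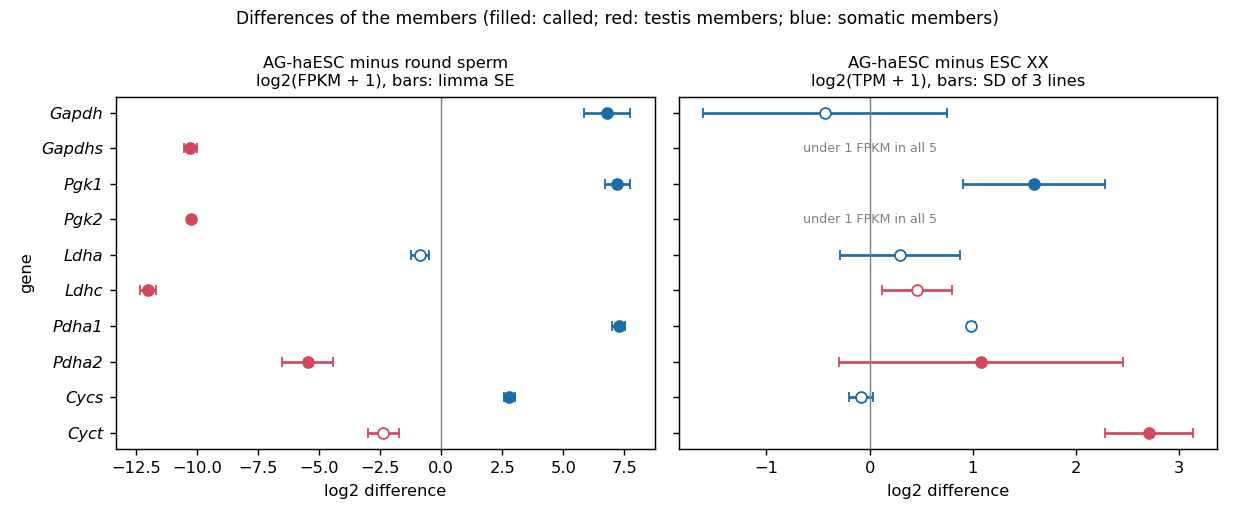
Log2 differences of the 10 genes between AG-haESCs and round sperm (limma estimate with SE) and between AG-haESCs and ESC XX (mean with SD over the 3 lines), with called genes filled. Against round sperm, Gapdhs, Pgk2 and Pdha1 reached the filter through 1 group alone, and against ESC XX, Ldhc and Pdha2 did so. Positive values are higher in AG-haESCs. Against round sperm, 4 somatic members lie between 2.78 and 7.28, Ldha lies at -0.88 and the testis members between -12.00 and -2.36; against ESC XX, Cyct has the largest difference (2.71).

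Cyct, the testis cytochrome c, was the one testis member with a substantial level outside round sperm. It was at 20.9, 50.8 and 35.9 FPKM in A129-2, AOS-14 and AOS-16, at 3.88 and 4.98 FPKM in ESC XX and at 178 FPKM in round sperm. The 3 groups did not overlap, and each AG-haESC line was above both ESC XX libraries. These levels rest on about 116 to 601 fragments in AG-haESCs and on 38.8 and 57.1 fragments in ESC XX. In TPM, AG-haESCs (59.6 ± 16.3 TPM, SD, n = 3) were 6.83 times ESC XX (8.72 ± 1.53 TPM, SD, n = 2), a log2 difference of 2.71 ± 0.43 (SD over lines). Against round sperm the log2 difference was -2.36 ± 0.62 and was not called (limma adjusted p = 0.0546). It passed when genes needed 5 FPKM to be tested (limma adjusted p = 0.0457), and it shrank to -1.29 at the same total and to -0.67 with quantile normalization.

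Cycs was at 46.4, 57.2 and 42.5 FPKM in the AG-haESC lines, 47.2 and 48.8 FPKM in ESC XX and 6.16 FPKM in round sperm. The AG-haESC and ESC XX libraries overlapped (log2 difference -0.09 ± 0.12, SD), and round sperm was lower by 7.91 times (log2 difference 2.78 ± 0.23, limma adjusted p = 0.00515). The higher Cyct share of AG-haESCs over ESC XX was therefore accompanied by a difference in Cyct and by none beyond the spread of the lines in Cycs. Cyct and Cycs together summed to 132, 153 and 144 TPM in the AG-haESC lines, 101 and 106 TPM in ESC XX and 149 TPM in round sperm, the narrowest range of any pair.

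Markers of meiotic spermatocytes, like Cyct, were higher in sum in each AG-haESC line than in ESC XX and highest in round sperm. Their 10 genes summed to 143, 96.7 and 84.2 TPM in A129-2, AOS-14 and AOS-16, to 40.4 and 38.1 TPM in ESC XX and to 3730 TPM in round sperm. Most of the round sperm sum was Mael (2041 TPM) and Hspa2 (1204 TPM). Dmc1 was lowest in round sperm (0.917 TPM, against 4.42 to 7.90 TPM elsewhere). Hormad1 in round sperm (20.2 TPM) was below the 3 lines (25.8 to 46.9 TPM), though highest in FPKM (25.1 FPKM). The others of the 10 were highest in round sperm. Of the 10, 6 were above both ESC XX libraries in all 3 lines: Sycp1 and Sycp3, of the synaptonemal complex, Hormad1, Mael, Piwil1 and Ccna1. Dmc1 and Tex101 overlapped ESC XX. Spo11, the meiotic nuclease, was at 0 in A129-2 and AOS-14 and at 0.0655 FPKM in AOS-16, and Hspa2 was below ESC XX in all 3. The order of the lines differed, with the marker sum highest in A129-2 and Cyct lowest there. Of 9 spermatogonial markers, which summed to 307, 205 and 309 TPM in the lines and 214 and 202 TPM in ESC XX, 3 were above both ESC XX libraries in every line. They were Stra8 (28.8, 9.80 and 24.2 FPKM against 2.04 and 1.25 FPKM), Sohlh2 (52.2, 46.3 and 41.0 FPKM against 4.38 and 4.48 FPKM) and Dmrt1 (4.84, 6.11 and 4.15 FPKM against 3.30 and 3.19 FPKM). Kit (17.1, 25.2 and 22.9 FPKM against 35.5 and 36.4 FPKM) was below both ESC XX libraries in every line. So were Nanos3 (2.74, 0.672 and 0.672 FPKM against 5.31 and 5.04 FPKM) and Gfra1 (0.0257, 0.0120 and 0 FPKM against 0.698 and 0.684 FPKM). Of 14 spermatid markers, 3 reached 1 FPKM in each of the 5 stem cell libraries, and most of their sum there was Odf2 (97.2 to 160 TPM). The others, protamine and transition protein genes among them, were under 1 FPKM in these libraries. Feeder markers were lower in AG-haESCs than in ESC XX, as given above. The part of any of these cells or programmes in the Cyct level was not tested.

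The windows before the starts of Cyct and Cycs are shown as those of the pair in which both members were present in AG-haESCs, in the same format and build.
Cyct, chr2:76360454-76360703, minus strand: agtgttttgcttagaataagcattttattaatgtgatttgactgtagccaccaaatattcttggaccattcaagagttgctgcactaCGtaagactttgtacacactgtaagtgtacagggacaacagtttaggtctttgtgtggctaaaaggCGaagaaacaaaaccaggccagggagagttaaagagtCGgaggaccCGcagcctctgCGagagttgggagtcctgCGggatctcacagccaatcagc
Cycs, chr6:50566570-50566819, minus strand: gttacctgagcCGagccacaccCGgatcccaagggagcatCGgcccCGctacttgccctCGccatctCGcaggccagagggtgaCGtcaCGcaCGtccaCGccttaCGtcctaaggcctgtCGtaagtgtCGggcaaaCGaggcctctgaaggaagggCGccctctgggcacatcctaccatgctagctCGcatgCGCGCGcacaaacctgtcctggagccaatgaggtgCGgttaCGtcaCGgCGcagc

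At the outermost RefSeq start, the testis member's window held fewer CpG dinucleotides than that of its partner in all 5 pairs. The counts were 1 for Gapdhs and 8 for Gapdh, 3 for Pgk2 and 17 for Pgk1, 8 for Ldhc and 25 for Ldha, 4 for Pdha2 and 15 for Pdha1, and 6 for Cyct and 23 for Cycs. The median over all 32851 mouse windows was 6, with quartiles of 2 and 16. Cyct and Ldhc, with 6 and 8, thus lay at or above the median, and the other 3 testis members below it. The cyclic AMP response element, bound by CREB and by the spermatid factor CREM, was searched as TGACGTCA and as its core TGACG on both strands, the core also matching inside the full element. The full element lay in the windows of Cycs, 169 bases before the start, and of Ldha, 12 bases before it, and in 1.55% of all windows. The core occurred in Ldhc, nearest at 47 bases, and in no window at the outermost start of the other 4 testis members, against 17.8% of all windows. GC boxes (GGGCGG, 32.7% of windows) occurred in Pgk1, Ldha and Ldhc, a TATA box (TATAAA, 12.4%) in Pdha2, and CCAAT (33.8%) in Pgk1, Pgk2, Cycs and Cyct. Such matches describe letters in these windows and no binding was measured.

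Sequence shared with other genes bears on the levels of the somatic members more than on those of their counterparts. Of the stretches of 50 bases in each reference transcript, 82.5% for Gapdh, 67.96% for Pgk1, 28.5% for Cycs, 16.9% for Pdha1 and 16.6% for Ldha also occurred in transcripts of other annotated genes, and Gapdh shared them with 222 genes. The figure was 4.55% for Gapdhs and 0% for Pgk2, Ldhc, Pdha2 and Cyct, and no stretch was shared within a pair. Levels of Gapdh and Pgk1 are therefore uncertain by what the fragment assignment gave to copies, whereas fragments of the pair partners are not confused with each other at this length. Exons of Gapdh, Gapdhs and Pdha1 overlap those of Iffo1, Tmem147os and Map3k15 on the opposite strand, and since the use of strand in counting is not given in the sources used here, these cannot be told apart.

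Other testis genes of energy metabolism were compared as a list of 16 genes outside the pairs, chosen for germ cell expression. Of the 16, 9 were under 1 FPKM in every AG-haESC line and entered the test only through round sperm, which fixed their direction. Of the other 7, 6 were lower in AG-haESCs and none was higher, beside 39.1% lower over all genes tested. Pgam2, the muscle phosphoglycerate mutase, fell by 9.71 on the log2 scale from 2316.1 FPKM in round sperm to a mean of 1.79 FPKM. Ldhal6b, a lactate dehydrogenase retrogene (-9.46), the cytochrome oxidase subunits Cox8c (-9.93), Cox7b2 (-5.66) and Cox6b2 (-4.14) and Pfkfb4 (-3.43), a regulator of phosphofructokinase, fell too. The 9 set by the filter were the glycerol kinase retrogenes Gk2 and Gykl1, the aldolase retrogenes Aldoart2 and Aldoart1, the enolase Eno4, the fibrous sheath anchors Akap4 and Akap3, the lactate and pyruvate carrier Slc16a7 and the fructose carrier Slc2a5. In round sperm these ranged from 78.2 FPKM for Eno4 to 1284.8 FPKM for Gk2. The call of Cox7b2 (limma adjusted p = 0.0195) was lost without AOS-14 (0.0943) or AOS-16 (0.0598).

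Slc25a31, the testis carrier that exchanges ADP and ATP across the inner mitochondrial membrane, was the exception. It was at 12.0, 7.20 and 2.51 FPKM in A129-2, AOS-14 and AOS-16, 0.188 and 0.493 FPKM in ESC XX and 27.9 FPKM in round sperm (log2 difference -2.0 ± 0.95 against round sperm, limma adjusted p = 0.165). Cox7b2 was at 24.7, 9.68 and 6.57 FPKM in the lines, 0.842 and 0.739 FPKM in ESC XX and 644 FPKM in round sperm. Like Cyct, both were above ESC XX in every line, by 2.91 ± 1.07 for Slc25a31 and 3.15 ± 1.06 for Cox7b2 (log2, SD over lines). They were the only 2 of the 7 genes of this list compared that passed the rule, beside 15.6% of all genes compared. Both were under 1 FPKM in ESC XX and entered this comparison only through AG-haESCs. The filter thus largely fixed their direction, and their values are given as a description. The lines ranked differently, with A129-2 highest for Slc25a31 and Cox7b2 and lowest for Cyct. Cox6b2, present in all libraries (81.8 to 93.8 FPKM in the lines, 66.4 and 66.5 FPKM in ESC XX, 1526.2 FPKM in round sperm), differed from ESC XX by 0.27 ± 0.14.

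**Figure D4:**
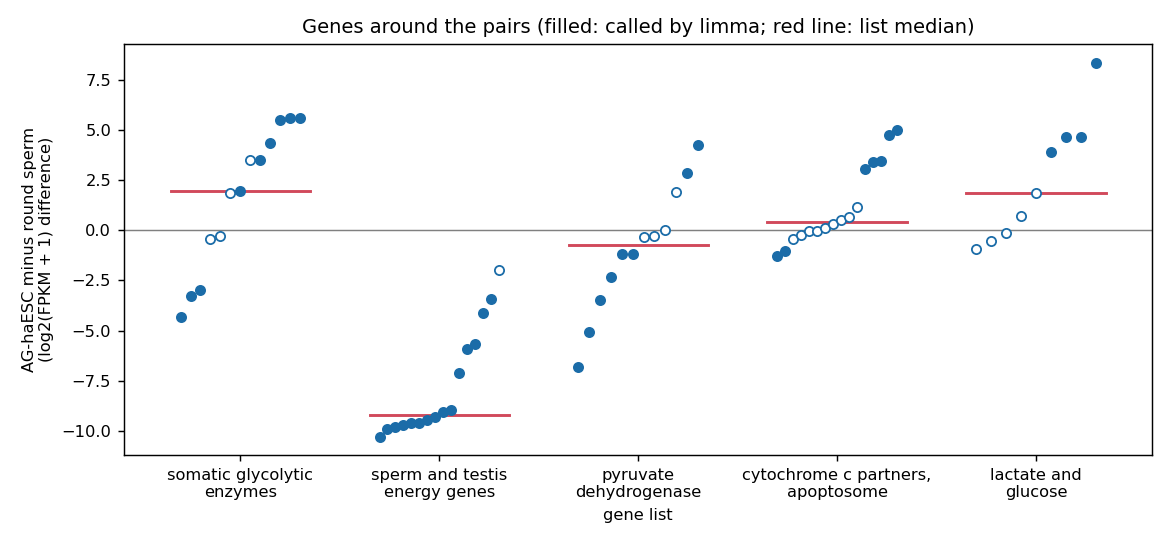
Log2 difference between AG-haESCs and round sperm (limma estimate) of each gene in the 5 lists outside the pairs, 1 point per gene, filled where called, with the list median as a line. The 16 sperm and testis energy genes have a median of -9.19, while the medians of the other 4 lists lie between -0.76 and 1.96. Of the 16, 9 reached the filter only through round sperm, and 3 genes of each other list only through AG-haESCs. The filter fixed the direction of these genes, so the medians are a description.

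The somatic glycolytic enzymes outside the pairs moved in both directions against round sperm. Of 13, 6 were higher and 3 lower in AG-haESCs (median 1.96), 69.2% called beside 61.9% over all genes, and the 9 calls became 3 without AOS-14. Hk2, Pfkl and Aldoc were under 1 FPKM in round sperm and entered the test only through AG-haESCs. Pgam1, the ubiquitous partner of Pgam2, was at 566, 559 and 762 FPKM in the lines and 12.0 FPKM in round sperm (log2 difference 5.58 ± 0.26, limma adjusted p = 0.0018). Phosphofructokinase Pfkl (5.60 ± 0.50), hexokinase Hk2 (5.52 ± 0.75), the aldolase Aldoc (4.34 ± 0.83) and pyruvate kinase Pkm (3.53 ± 0.41) were also higher. Of these, Hk2, Aldoc and Pkm lost the call without AOS-14 (limma adjusted p = 0.0787, 0.109 and 0.0636), and Aldoc also without A129-2 (0.0562). Hexokinase Hk1, which has a germ cell form bound to the sperm tail, was at 29.1, 32.0 and 40.7 FPKM in the lines, 22.5 and 22.5 FPKM in ESC XX and 696 FPKM in round sperm (log2 difference -4.33 ± 0.25, limma adjusted p = 0.00268). Against ESC XX, none of the 13 was higher and 1, Eno3, was lower (-1.5 ± 0.56, SD), named after its value was seen. Over all genes compared, 7.37% were higher and 8.28% lower.

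Around pyruvate dehydrogenase, 2 of 12 genes were higher and 6 lower in AG-haESCs than in round sperm (median -0.76), 66.7% called beside 61.9% over all genes, and 8 calls that fell to 4 without AOS-14 and to 5 at the same total. The kinase Pdk2, which inactivates the complex, fell from 281 FPKM in round sperm to 1.05, 1.79 and 1.61 FPKM (log2 difference -6.84 ± 0.25, limma adjusted p = 0.00109). Mpc2, a subunit of the mitochondrial pyruvate carrier, was at 1104.7 FPKM in round sperm and 30.7, 38.0 and 28.2 FPKM in the lines (-5.06 ± 0.23, limma adjusted p = 0.00163). The phosphatase Pdp1 was lower (-3.47 ± 0.09), as was Pdhx (-2.32 ± 0.46), a structural subunit whose call was lost at the same total (limma adjusted p = 0.172), without AOS-14 (0.123) and without AOS-16 (0.0838). The kinase Pdk1 (4.27 ± 0.66) and the phosphatase Pdp2 (2.87 ± 0.56) were higher, both under 1 FPKM in round sperm and tested only through AG-haESCs. Pdk1 lost its call without A129-2 (limma adjusted p = 0.0674) or AOS-14 (0.0608), and Pdp2 without AOS-14 (0.12). Against ESC XX, 1 of 12 was higher, the X-linked kinase Pdk3 (1.83 ± 0.39, SD), named after its value was seen, and the count was 2 to 4 when single AG-haESC lines were left out and 3 without ESC XX replicate 2. Beside it, 7.37% of all genes compared were higher, and 45.5% of X-linked genes, whose median was 0.92.

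Among 16 partners of cytochrome c, 5 were higher and 2 lower in AG-haESCs than in round sperm (median 0.39), 43.8% called beside 61.9% over all genes, with 3 of the 16 tested only through AG-haESCs, Hccs and Apaf1 among them. The calls numbered 4 in all without AOS-16 and 11 with quantile normalization. Hccs, the X-linked enzyme that attaches haem to cytochrome c, was at 30.5, 28.8 and 22.8 FPKM in the lines, 11.8 and 12.95 FPKM in ESC XX and 0.0421 FPKM in round sperm (log2 difference 4.76 ± 0.23). It was the 1 gene of the list past the rule against ESC XX (1.01 ± 0.30, SD), and did not pass without ESC XX replicate 1. The rule was passed by 15.6% of all genes compared and by 47.8% of X-linked genes, whose median was 0.92. Cyc1, cytochrome c1 of complex III, was higher (3.41 ± 0.22), as was the oxidase subunit Cox6b1 (3.05 ± 0.49), the somatic counterpart of Cox6b2, whose call was lost without AOS-16 (limma adjusted p = 0.0825). Uqcrc1, a core subunit of complex III, was lower (-1.29 ± 0.10), with no call at the same total (-0.21, limma adjusted p = 0.428), and turned to 0.43 with quantile normalization. Apaf1, which cytochrome c activates in apoptosis, was higher (3.44 ± 0.31).

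Of 9 genes of lactate and glucose handling, 4 were higher in AG-haESCs than in round sperm and none was lower (median 1.84), 44.4% called beside 61.9% over all genes. Of the 4, Slc2a1, Slc16a1 and Hif1a were under 1 FPKM in round sperm and entered the test only through AG-haESCs. The glucose carrier Slc2a1 was at 320, 442 and 906 FPKM in the lines, 119 and 114 FPKM in ESC XX and 0.542 FPKM in round sperm (log2 difference 8.36 ± 0.76). The carrier Slc16a1, which moves lactate (4.64 ± 0.26), the dehydrogenase subunit Ldhb (4.65 ± 0.61) and the hypoxia factor Hif1a (3.91 ± 0.37) were also higher, Ldhb not without AOS-16 (limma adjusted p = 0.0651). Slc16a3, another lactate carrier, differed by 1.84 ± 0.73 (limma adjusted p = 0.12) and passed without AOS-16 (0.0369). Bsg, the chaperone of these carriers, differed by -0.91 ± 0.38 (limma adjusted p = 0.13), and by 0.18 at the same total. Against ESC XX, Slc2a1 (2.01 ± 0.81), the carrier Slc2a3 (1.23 ± 0.58) and Pfkfb3 (1.47 ± 1.01, log2, SD) were higher, beside 7.37% of all genes compared. The last 2 were named after their values were seen, and 1 of the 3 passed without AOS-16.

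For each of the 10 genes the closest of 14937 other genes was found by Euclidean distance of log2(TPM + 1) over the 6 libraries, a description with no test. Pgk2 lay closest to Tex33 (distance 0.13) and Hmgb4 (0.14), and Gapdhs to Cypt12 (0.30) and BC051142 (0.30). Ldhc had no neighbour nearer than Ropn1l (1.51) and Rbakdn (1.87), and Pdha2 lay nearest to 9530077C05Rik (1.02) and 9230110C19Rik (1.21). Cyct had the most distant nearest neighbours of the testis members, Mok (2.04) and Slc25a33 (2.08). Among the somatic members, Cycs lay closest to Cuta (0.32) and Chchd4 (0.40), Ldha to Eef2 (0.65) and Pabpc1 (1.02), Pdha1 to Hprt (0.82) and Tomm5 (0.95), Pgk1 to Slc25a5 (1.30) and Pou5f1 (1.41), and Gapdh to Ptma (1.66) and Rpl10 (2.47).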

How the data were processed

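RNA sequencing values of 6 mouse libraries were used. The authors used TopHat2 2.0.13, Cuffdiff 2.2.1 and the build mm9, per the submitters' processing notes. How these tools normalized and whether they used strand is not stated in what was available here. FPKM is the unit assumed for all deposited values. The ESC XX tables name this unit, and for the table of AG-haESC and round sperm it was taken from the tool and the size of the values. Each ESC XX library had a separate table, so levels were not tested across tables. No counts were used. Depth and fragments were estimated from the steps of low values and are approximate.

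AG-haESCs (3 lines) and round sperm (1 library) were compared on log2(FPKM + 1) by limma with its trend option (limma 3.58.1, run in R 4.3.3), for genes with at least 1 FPKM in at least 1 of the 4 libraries. This scale understates the change of low genes. AG-haESCs and ESC XX were compared on log2(TPM + 1) after removing the median difference (-0.098). Shares were compared by exact permutation tests, two-sided, adjusted over 10 comparisons. The limma p-values rest on the spread among the 3 AG-haESC lines, and the exact permutation p-values are bounded below by the number of libraries. The script was tested on simulated data.

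Chromosomes and transcripts came from GENCODE M21 (GRCm38) by symbol, with a chromosome for 99.5% of symbols, and promoter windows from RefSeq (GRCm38.p6), which held all 10 genes. The genes, lists and tests were chosen with earlier results of these data known. All 10 genes and all 16 sperm and testis energy genes were named, and of each other list up to 6 genes with the largest absolute difference against round sperm; 1 gene that this rule names is not reported here. Alternatives were other pseudocounts, filters, scalings and left-out libraries.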

Additional observations from a re-analysis of the deposited data

How the results depend on the processing

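Among the 10 genes, 7 to 9 were called against round sperm over all alternatives (8 with Gapdhs, Pgk2 and Pdha1 included) and 2 to 4 passed the rule against ESC XX (3 as reported). The filter fixed the direction of Gapdhs, Pgk2 and Pdha1 against round sperm, and largely that of Ldhc and Pdha2 against ESC XX. Over all genes, 61.9% were called against round sperm and 15.6% passed the rule against ESC XX. Genes called in all numbered 7780 to 10310 (9864 as reported), and those past the rule against ESC XX 1484 to 2584 (2061 as reported). The direction of Ldha against round sperm turned to 0.21 at the same total and 0.19 at the same total without short transcripts, that of Bsg to 0.18, 0.15 and, with quantile normalization, 0.38, and that of Uqcrc1 to 0.43 with quantile normalization. The share differences against ESC XX ran, with a library left out, from 0 (without AOS-14) to 0.0113 percentage points for Gapdhs, from -0.00839 to 0.00131 (without ESC XX replicate 2) for Pgk2 and from -0.118 (without A129-2) to 1.16 for Pdha2, and from 0.00283 to 0.0605 for Ldhc (0.0332 with all libraries). Counts of the lists moved by over 1.5 times as follows. Against round sperm, the glycolytic list had 3 calls without AOS-14, the pyruvate dehydrogenase list 5 at the same total with or without short transcripts and 4 (without AOS-14) to 6 with a line left out, and the cytochrome c list 11 with quantile normalization and 4 (without AOS-16) to 6 with a line left out. Against ESC XX, the glycolytic list had 2 on FPKM as deposited and 3 without A129-2, the testis list 4 with a pseudocount of 0.1, the pyruvate dehydrogenase list 3 on FPKM as deposited and 1 (without ESC XX replicate 1) to 4 (without A129-2) with a library left out, the cytochrome c list 0 without a filter or without ESC XX replicate 1, and the lactate list 1 without AOS-16. The causes were not tested. No paired analysis was possible because the groups compared share no replicate numbers in the labels that could pair their libraries. With 1 round sperm library and no read counts, values near 0 FPKM, such as those of Pgk2 and Gapdhs in stem cells, rest on a few fragments, and differences between AG-haESCs and ESC XX were not detectable for them at this depth.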
